A study of Homo sapiens with 12 samples.

Results

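The machinery that copies chromosomal DNA was followed through 39 genes that encode its parts, and all 39 were found by their GENCODE symbol among the 60675 Ensembl identifiers of each library. They were sorted into 9 roles, from origin licensing through the MCM2-7 helicase and the polymerases to deoxynucleotide supply and chromatin assembly. RNA was sequenced from SUDHL6 and SUDHL16, human diffuse large B-cell lymphoma (DLBCL) cell lines, and from a venetoclax-resistant line derived from each. Venetoclax (ABT-199) inhibits the anti-apoptotic protein BCL2, and the question was how expression of the replication genes compared between resistant and parental cells. There were 3 libraries in each of the 4 groups, 12 in total. The parental cells were not selected with drug. Each resistant line had been raised over months in rising venetoclax and was kept in the drug. For experiments the cells were moved to fresh medium. Whether it held venetoclax when RNA was taken is not stated, so exposure to the drug and lasting resistance cannot be told apart. One resistant line was sequenced per parent, so its libraries do not show how far another resistant line would agree. The SUDHL6 libraries were made with a NEBNext Ultra II kit for a HiSeq instrument and the SUDHL16 libraries with an Illumina stranded total RNA kit with ribosomal RNA depletion for a NovaSeq, so line and method cannot be told apart. Within a line, parental and resistant libraries shared both.

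Replication starts when the origin recognition complex, CDC6 and CDT1 load the ring of MCM2 to MCM7 onto DNA. CDC45 and the GINS complex then turn that ring into an active helicase, and polymerases alpha, delta and epsilon copy the unwound strands with the help of the PCNA clamp and its loader. Many of these genes are transcribed by E2F factors as cells enter S phase.

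The SUDHL6 libraries held 33992784 to 40885665 counts each. Those of SUDHL16 were smaller, at 4131927 to 22068221. The libraries are named by their titles, CE-7 to CE-9 for SUDHL6 parental, CE-10 to CE-12 for SUDHL6 resistant, CE-25 to CE-27 for SUDHL16 parental and CE-28 to CE-30 for SUDHL16 resistant. The values below are counts scaled to library size (CPM) with the TMM factors of each line, in the order of those titles. CE-26 had the smallest total, and only 55.4% of its counts lay on protein-coding genes, where the rest of that line had 84.3% to 90.2%. Of its counts 31.9% lay on identifiers absent from GENCODE, beside 1.61% to 5.06% in the rest, and 2.62% on mitochondrial genes, beside 0.752% to 1.14%. A second library stood apart in the members themselves. In CE-30 the member genes had a median of 0.617 times their mean in the other 2 resistant libraries, and 15 of 39 were below 0.5 times that mean. Of all 11087 genes whose average reached 5 CPM, 49.9% had a ratio below 1 and 5.30% below 0.5, while 36 of the 39 members had a ratio below 1. The same comparison of CE-26 with the other parental libraries gave a median of 0.652 for the members and 0.879 for all such genes. Together the 39 members summed to 6935, 6943 and 6969 CPM in SUDHL6 parental and 6039, 6075 and 6065 CPM in SUDHL6 resistant libraries. In SUDHL16 the sums were 4595, 3771 and 4992 CPM in parental and 4847, 5141 and 2864 CPM in resistant libraries. The resistant sums were thus all below the parental ones in SUDHL6, whereas in SUDHL16 the groups overlapped and CE-26 and CE-30 were the lowest of their groups. Fold changes of the members described one by one are therefore given in SUDHL16 with all libraries, without CE-26 and, chosen after the data were seen, without both.

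The 5 B-cell markers examined (MS4A1, CD79A, CD79B, PAX5 and CD22) were present in every library, at a sum of 3816 to 4027 CPM of the library total in SUDHL6 and 1584 (CE-26) to 3995 CPM in SUDHL16. In SUDHL6 the B-cell sum was 3816 to 3871 CPM in parental and 4002 to 4027 CPM in resistant libraries. The genes did not move together, as edgeR gave rises of MS4A1 (log2 fold change 0.21, adjusted p = 8.59e-08) and CD22 (0.13, adjusted p = 3.39e-05) and falls of CD79B (-0.40, adjusted p = 3.58e-09) and CD79A (-0.12, adjusted p = 3.39e-04). The markers of each other cell type, taken singly, summed to at most 2.27 CPM in a SUDHL6 library. Of these the epithelial ones were at 0.206 to 1.13 CPM in parental and 1.13 to 1.59 CPM in resistant libraries, and KRT18 was called higher with edgeR (2.33-fold, adjusted p = 0.0465) on 4, 7 and 20 parental and 33, 22 and 22 resistant counts. Mitochondrial genes held 5.60% to 5.61% of counts in parental and 6.34% to 6.63% in resistant SUDHL6 libraries.

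In SUDHL16 the 6 T and NK markers summed to 1.62, 10.4 and 3.05 CPM in parental and 13.7, 14.5 and 12.5 CPM in resistant libraries, led by CD3E, with CD3D and CD2 at 0 counts in every resistant library. The 6 fibroblast markers summed to 42.4, 42.8 and 37.4 CPM in SUDHL16 parental and 0.140, 0.547 and 0.453 CPM in SUDHL16 resistant libraries. DCN was the most abundant of them, and DCN and LUM made up most of that sum, while COL1A1 was at 0 in the parental libraries. In CE-26 COL1A2, COL3A1 and PDGFRB were at 7.02, 4.60 and 5.08 CPM (29, 19 and 21 counts). In CE-25 and CE-27 each of these was at most at 0.360 CPM. The 5 epithelial markers reached 9.92 CPM in CE-26, led by CDH1, and at most 0.767 CPM in the other SUDHL16 libraries. Myeloid markers, led by CSF1R, reached 5.32 CPM in CE-26 and at most 1.32 CPM elsewhere in that line. The part of these differences in the values of the replication genes was not tested.

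In SUDHL6, most of the replication machinery was a little lower in the resistant cells. All 39 genes were tested, and 35 had a lower mean in resistant than in parental libraries. Of the 39, 29 fell at an adjusted p under 0.05 with edgeR's quasi-likelihood test, against 19.7% of the 16662 genes tested. Among the 6132 genes at or above the mean CPM of the lowest member, 31.1% fell. Another 3 members (ORC2, RPA2 and RRM2) rose, against 17.7% of all genes. The median log2 fold change was -0.19 over the members and 0.00 over all genes. The parental and resistant libraries were apart, with no overlap, for 33 members, 30 of them lower and 3 higher in resistant cells. Over all genes 24.8% were apart and lower and 23.1% apart and higher. The changes were small, with log2 fold changes from -0.60 to 0.26. A gene was called when it also changed at least 1.5-fold, and 1 member, MCM5, was called, against 4.65% of all genes called lower. These RNA levels come from bulk cultures, in which fewer cells copying their DNA and less RNA of these genes per cell cannot be told apart.

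**Figure D1:**
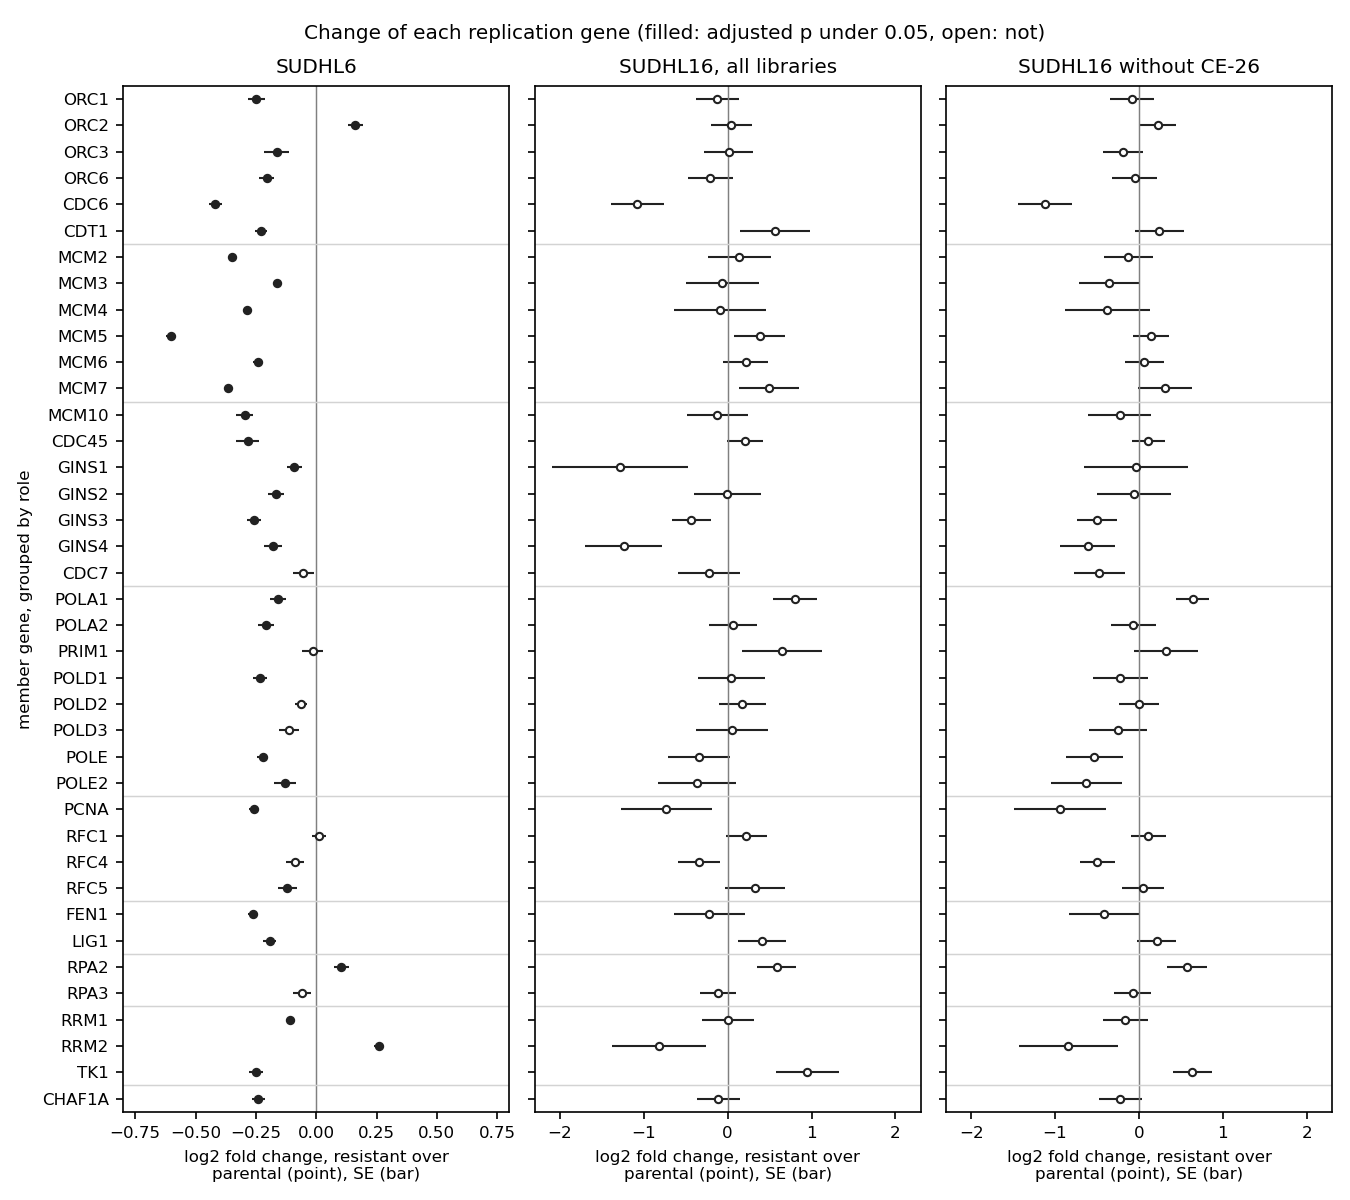
Log2 fold change of each of the 39 members in resistant over parental cells (points) with its standard error (bars), in SUDHL6, in SUDHL16 and in SUDHL16 without CE-26. Filled points have an adjusted p under 0.05, horizontal lines part the roles, and the SUDHL6 axis is narrower than the other axes. In SUDHL6 32 points are filled and 29 of them lie below 0, and in SUDHL16 all 39 are open.

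In SUDHL16 the set did not move one way. All 39 members were tested, 20 had a higher and 19 a lower mean in resistant cells, and their median log2 fold change was 0.01, beside -0.02 over the 15708 genes tested. edgeR called 0 members, against 5.30% of all genes, and 5 members had an unadjusted p under 0.05, against 19.1%. DESeq2 and limma voom with sample weights each called 2 members, CDC6 and POLA1, where they called 11.3% and 16.6% of all genes. Without CE-26 edgeR called 0 of 39 again, against 10.0% of 16280 genes, and the members' median was -0.08 beside 0.05 over all genes. Without CE-26 and CE-30, 1 member (CDC6) was called, against 10.2% of genes, and the median was 0.04. Without CE-30 alone the median was 0.21, so the sign of this small median turned on which library was left out. The libraries of both groups were apart for 7 members, of which CDC6, GINS3, GINS4 and RRM2 were lower and POLA1, RPA2 and TK1 higher in resistant cells. Over all genes 11.9% were apart and lower and 14.6% apart and higher. The spread sets what could be seen here. The median SE of a member's log2 fold change was 0.36 in SUDHL16 and 0.030 in SUDHL6, so the median change of SUDHL6 was smaller than the SE of a typical member in SUDHL16, and a p above the threshold there does not show that a gene was unchanged.

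**Figure D2:**
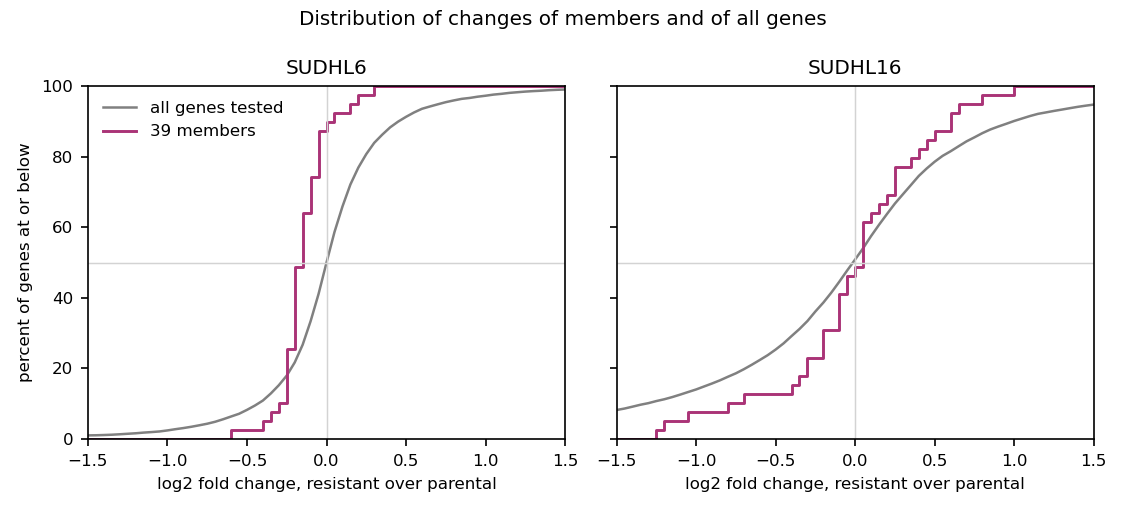
Share of genes (vertical axis, percent) at or below each log2 fold change of resistant over parental cells (horizontal axis), for all genes tested (grey) and the 39 members (purple), in each line. In SUDHL6 the members' curve lies to the left of that of all genes over most of its length and crosses 50% near -0.19, and in SUDHL16 both cross it near 0.

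The helicase core was the role whose median fell most from parental to resistant SUDHL6 cells. MCM2 to MCM7 form the ring that unwinds DNA ahead of the fork, and all 6 genes fell, with a median log2 fold change of -0.32. Summed over the 6 genes, the parental libraries held 3001, 2996 and 3028 CPM and the resistant ones 2447, 2462 and 2447 CPM. MCM5, which closes the ring at the MCM2 gate, measured 264, 263 and 266 CPM in parental and 175, 174 and 173 CPM in resistant libraries. Every resistant library lay well below every parental one, and libraries of 1 group differed by a few CPM. Its log2 fold change was -0.60 (SE 0.020, edgeR adjusted p = 2.73e-10), a fall by 34.1%. With upper-quartile scaling it was -0.58, just short of 1.5-fold, so the call depended on the scaling and the direction did not. MCM7 measured 722, 722 and 739 CPM in parental and 563, 565 and 568 CPM in resistant libraries, again apart, with a log2 fold change of -0.36 (SE 0.016, edgeR adjusted p = 3.58e-09). The MCM7 gene holds the microRNA genes MIR106B, MIR25 and MIR93 and overlaps AP4M1 on the other strand, and the use of strand in the counting is not given in the sources used here, so its reads are less certain. The other 4 genes had log2 fold changes from -0.35 (MCM2) to -0.16 (MCM3).

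In SUDHL16 the same 6 genes had a median log2 fold change of 0.18, or -0.03 without CE-26, and none passed the edgeR test either way. MCM5 measured 156, 91.3 and 192 CPM in parental and 198, 203 and 171 CPM in resistant libraries. The resistant values were close together, and CE-27 lay among them while CE-26 lay far below. MCM7 measured 259, 162 and 265 CPM in parental and 371, 401 and 191 CPM in resistant libraries. CE-28 and CE-29 were above every parental library and CE-30 was below CE-25 and CE-27. The log2 fold changes were 0.38 (SE 0.31, edgeR adjusted p = 0.572) for MCM5 and 0.49 (SE 0.36, edgeR adjusted p = 0.524) for MCM7. For MCM5 it was 0.15 without CE-26 (edgeR adjusted p = 0.759) and 0.21 without CE-26 and CE-30 (edgeR adjusted p = 0.614). That of MCM7 was 0.31 without CE-26 (edgeR adjusted p = 0.651) and 0.56 without CE-26 and CE-30 (edgeR adjusted p = 0.112).

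**Figure D3:**
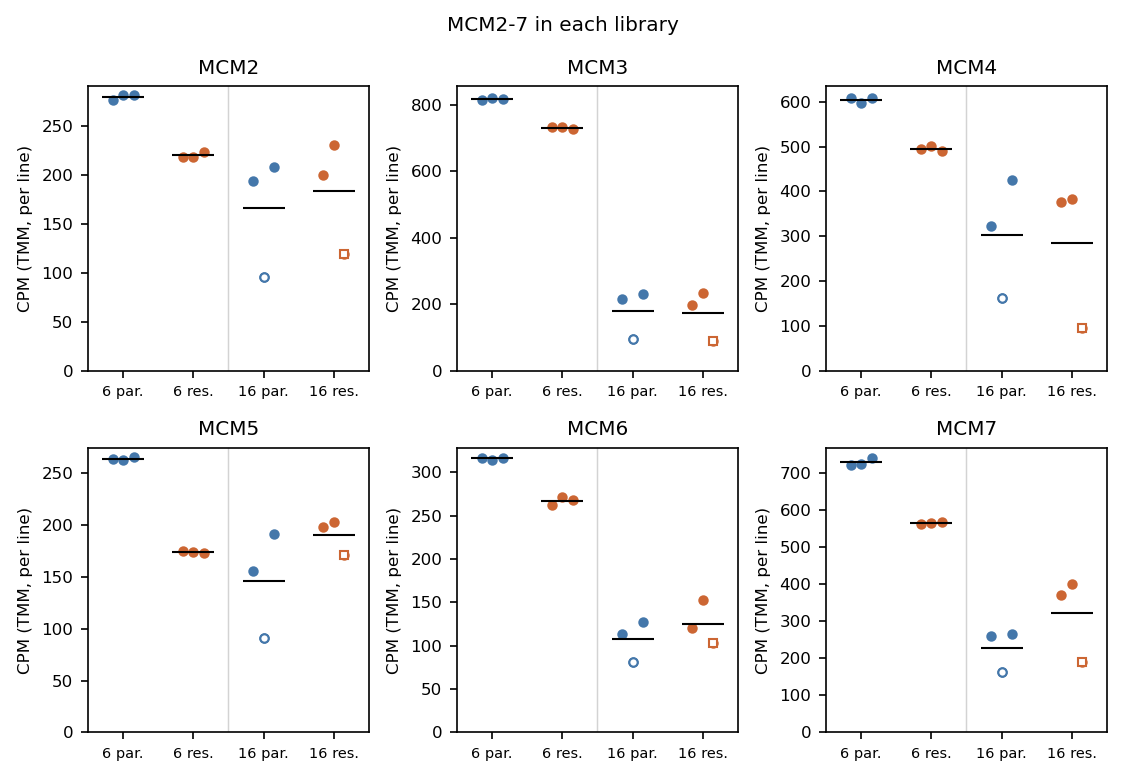
CPM of MCM2 to MCM7 (vertical axis, from 0) in each library of SUDHL6 (6) and SUDHL16 (16), parental in blue and resistant in orange, with the group mean as a line. The open circle is CE-26 and the open square CE-30. In SUDHL6 the resistant libraries lie below the parental ones for all 6 genes, and in SUDHL16 the groups overlap.

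The promoters of these genes are shown because the 6 genes fell together in SUDHL6 and E2F factors are known to bind such promoters. The E2F motif was searched on both strands as TTTCCCGC, TTTCGCGC, TTTGCCGC and TTTGGCGC and their reverse complements GCGGGAAA, GCGCGAAA, GCGGCAAA and GCGCCAAA, and overlapping matches were counted. RefSeq promoters of 300 bases, from 250 bases before to 50 bases after the start, were matched for 33 of the 39 members by symbol, on build GRCh38.p14. MCM2, MCM3, MCM6 and MCM7 held a match. They lie at chr3:127598161-127598460 (plus strand), chr6:52284693-52284992 (minus strand), chr2:135876394-135876693 (minus strand) and chr7:100101348-100101647 (minus strand). CDC6, which loads the ring, lies at chr17:40287629-40287928 (plus strand), the clamp gene PCNA at chr20:5126573-5126872 (minus strand) and the polymerase gene POLA1 at chrX:24693668-24693967 (plus strand). Each line reads 5′ to 3′ along the gene's strand, and capitals mark the matches.
MCM2: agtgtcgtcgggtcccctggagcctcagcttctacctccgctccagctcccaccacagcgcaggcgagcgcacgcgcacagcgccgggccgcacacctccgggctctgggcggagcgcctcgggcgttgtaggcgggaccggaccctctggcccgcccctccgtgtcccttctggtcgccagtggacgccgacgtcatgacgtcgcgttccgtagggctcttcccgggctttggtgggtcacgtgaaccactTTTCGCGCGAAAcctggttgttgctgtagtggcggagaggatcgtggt
MCM3: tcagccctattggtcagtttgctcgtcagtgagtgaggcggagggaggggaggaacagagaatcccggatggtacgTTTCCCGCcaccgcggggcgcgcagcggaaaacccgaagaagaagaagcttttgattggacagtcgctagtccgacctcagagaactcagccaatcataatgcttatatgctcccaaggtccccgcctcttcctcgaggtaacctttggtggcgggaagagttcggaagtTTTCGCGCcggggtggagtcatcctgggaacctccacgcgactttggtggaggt
MCM6: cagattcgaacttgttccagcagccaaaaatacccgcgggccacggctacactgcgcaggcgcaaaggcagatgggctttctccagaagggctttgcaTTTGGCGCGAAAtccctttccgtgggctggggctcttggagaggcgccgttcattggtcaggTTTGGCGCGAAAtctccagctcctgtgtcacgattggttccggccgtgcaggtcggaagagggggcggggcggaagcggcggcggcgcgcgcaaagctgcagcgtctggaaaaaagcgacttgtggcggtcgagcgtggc
MCM7: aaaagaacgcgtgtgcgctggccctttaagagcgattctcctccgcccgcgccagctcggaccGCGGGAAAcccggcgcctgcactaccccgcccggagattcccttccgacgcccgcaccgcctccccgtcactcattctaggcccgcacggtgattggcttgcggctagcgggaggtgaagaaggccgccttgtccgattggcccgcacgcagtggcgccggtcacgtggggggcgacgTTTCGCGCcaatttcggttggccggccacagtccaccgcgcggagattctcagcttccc
CDC6: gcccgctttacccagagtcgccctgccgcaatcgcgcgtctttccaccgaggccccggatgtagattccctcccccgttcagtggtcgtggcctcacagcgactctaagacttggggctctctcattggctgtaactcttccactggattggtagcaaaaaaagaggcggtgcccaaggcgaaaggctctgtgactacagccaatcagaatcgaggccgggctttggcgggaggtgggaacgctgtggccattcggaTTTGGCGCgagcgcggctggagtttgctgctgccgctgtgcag
PCNA: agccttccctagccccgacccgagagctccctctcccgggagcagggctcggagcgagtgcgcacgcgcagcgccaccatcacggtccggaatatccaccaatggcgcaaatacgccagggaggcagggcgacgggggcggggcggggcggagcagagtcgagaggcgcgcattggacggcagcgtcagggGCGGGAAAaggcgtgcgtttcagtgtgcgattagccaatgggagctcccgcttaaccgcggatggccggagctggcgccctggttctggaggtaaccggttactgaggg
POLA1: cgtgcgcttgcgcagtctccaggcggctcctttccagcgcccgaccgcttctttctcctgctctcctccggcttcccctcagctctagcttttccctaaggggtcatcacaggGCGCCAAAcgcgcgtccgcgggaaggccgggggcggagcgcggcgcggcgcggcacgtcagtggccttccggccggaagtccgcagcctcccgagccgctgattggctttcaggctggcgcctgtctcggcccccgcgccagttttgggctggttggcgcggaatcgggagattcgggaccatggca
MCM6 held 4 matches in 2 pairs that share bases, with first bases 152, 148, 90 and 86 bases upstream of the start. MCM7 held 1 at 187 and 1 at 9 bases upstream, and MCM3 1 at 174 and 1 at 4 bases upstream. Promoter 1 is shown for each gene. MCM7 promoters 2 and 3 and PCNA promoter 2, not shown, held no match. In MCM2 the 2 matches overlap and begin at base 3 and base 7 of the gene. The single match of CDC6 begins at base 8 of the gene, that of PCNA 59 bases upstream and that of POLA1 137 bases upstream. In all, 17 of the 33 members (51.5%) held the motif in at least 1 promoter. Among all 35116 promoters 3.31% held it, and among genes tested in SUDHL6 with a promoter 6.53% did. Of 40 other replication genes with a promoter, 14 (35.0%) did. The 17 members with a match had a median log2 fold change in SUDHL6 of -0.21 and the 16 without one of -0.16, and in SUDHL16 the medians were 0.00 and 0.02. A match describes the letters of this window and not binding. Strings 1 base off the motif were not counted, such as TTTGGCGG in the promoters of CDC6, MCM10 and CDC45. MCM10 and CDC45 are among the members without a match. MCM4, MCM5, GINS4, POLD3, RPA2 and RPA3 are named only.

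Of the 6 genes of origin licensing, 5 fell in resistant SUDHL6 cells and ORC2 rose, with a median log2 fold change of -0.22. CDC6, the ATPase that brings the ring to the origin, measured 115, 119 and 118 CPM in parental and 87.4, 86.4 and 90.4 CPM in resistant SUDHL6 libraries. The groups were apart, with a log2 fold change of -0.42 (SE 0.028, edgeR adjusted p = 1.36e-07). In SUDHL16 CDC6 measured 93.4, 86.8 and 100.5 CPM in parental and 48.5, 59.0 and 25.9 CPM in resistant libraries. Here too every resistant library was below every parental one, CE-26 included, and CE-30 was the lowest. The SUDHL16 log2 fold change was -1.07 (SE 0.31, edgeR adjusted p = 0.0965), and -1.11 (adjusted p = 0.0670) without CE-26 in edgeR, short of the threshold. It passed with DESeq2 (-1.09, adjusted p = 0.0201), with limma voom (-1.06, adjusted p = 0.0107) and in edgeR without CE-26 and CE-30 (-0.85, adjusted p = 0.0463). The other 5 licensing genes in SUDHL16 had log2 fold changes from -0.20 (ORC6) to 0.57 (CDT1), and their libraries overlapped. The highest value of this role was 0.24 without CE-26 and 0.45 without CE-26 and CE-30.

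The 7 genes of helicase activation had a median of -0.18 in SUDHL6, where 6 fell and CDC7, the kinase that fires origins, did not pass (-0.05). MCM10, which helps the activated helicase to leave the origin, measured 75.4, 80.9 and 79.2 CPM in parental and 65.9, 63.9 and 61.8 CPM in resistant SUDHL6 libraries. The groups were apart, and its log2 fold change was -0.30 (SE 0.034, edgeR adjusted p = 2.00e-05). In SUDHL16 the values of MCM10 were 67.5, 53.7 and 74.8 CPM in parental and 73.3, 77.6 and 29.6 CPM in resistant libraries, with CE-30 below all others and a log2 fold change of -0.12 (SE 0.36, edgeR adjusted p = 0.901). It was -0.23 without CE-26 (edgeR adjusted p = 0.787) and 0.09 without CE-26 and CE-30 (edgeR adjusted p = 0.863), so its sign changed. The GINS genes show how 1 library can set a value. GINS1, a subunit of the GINS complex, measured 115, 674 and 151 CPM in SUDHL16 parental and 219.8, 133 and 32.8 CPM in resistant libraries. CE-26 stood far above all others, with 1957 counts on this gene, and CE-30 far below. The log2 fold change was -1.28 (SE 0.81, edgeR adjusted p = 0.446) with all libraries, -0.04 without CE-26 and 0.40 without CE-26 and CE-30. In SUDHL6 GINS1 measured 62.6, 64.7 and 61.2 CPM in parental and 58.2, 59.2 and 59.6 CPM in resistant libraries, apart by little, with a log2 fold change of -0.09 (SE 0.031, edgeR adjusted p = 0.0334). This fall depended on the settings. It passed in edgeR with protein-coding genes only and without CE-9, and missed the threshold when any other library was left out and in the other 5 alternatives, with adjusted p up to 0.135 (without CE-8 in edgeR).

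All 8 polymerase and primase genes had a lower mean in resistant SUDHL6 cells, and 5 fell, with a median of -0.14. POLD1, the catalytic subunit of polymerase delta, measured 154, 148 and 154 CPM in parental and 128, 126 and 134 CPM in resistant SUDHL6 libraries, apart, with a log2 fold change of -0.23 (SE 0.029, edgeR adjusted p = 3.98e-05). In SUDHL16 POLD1 measured 165, 82.3 and 188 CPM in parental and 190.0, 174 and 87.3 CPM in resistant libraries, and the lowest value of each group was CE-26 and CE-30. The log2 fold change was 0.05 (SE 0.40, edgeR adjusted p = 0.967) with all libraries, -0.22 without CE-26 (edgeR adjusted p = 0.761) and 0.04 without CE-26 and CE-30 (edgeR adjusted p = 0.939). POLA1, the catalytic subunit of polymerase alpha, which makes the primed start of each new strand, was higher in resistant SUDHL16 cells. It measured 149, 97.5 and 146 CPM in parental and 222, 244 and 218 CPM in resistant libraries. All 3 resistant libraries, CE-30 included, were above all 3 parental ones. The log2 fold change was 0.80 (SE 0.26, edgeR adjusted p = 0.134) with all libraries and 0.64 (adjusted p = 0.0867) without CE-26, so it did not pass in edgeR. Nor did it without CE-26 and CE-30 (0.66, adjusted p = 0.0730 in edgeR). It passed with DESeq2 (0.78, adjusted p = 0.0221) and limma voom (0.69, adjusted p = 0.0313). In SUDHL6 POLA1 was lower in resistant cells, with 84.9, 91.7 and 87.5 CPM in parental and 78.1, 81.1 and 77.5 CPM in resistant libraries and a log2 fold change of -0.16 (SE 0.033, edgeR adjusted p = 0.00217). The other 7 genes of the role in SUDHL16 had log2 fold changes from -0.36 (POLE2) to 0.65 (PRIM1). Both ends depended on CE-26. PRIM1 had 7.58 CPM (22 counts) in CE-26, beside 23.8 CPM in CE-25 and 20.8 CPM in CE-27. Its parental mean without CE-26 was 22.3 CPM, beside a resistant mean of 27.8 CPM. The lowest value of the role was -0.63 without CE-26.

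The clamp PCNA encircles DNA and holds the polymerases to it, and RFC1, RFC4 and RFC5 belong to the loader. PCNA measured 449, 467 and 462 CPM in parental and 376, 385 and 391 CPM in resistant SUDHL6 libraries, apart, with a log2 fold change of -0.26 (SE 0.021, edgeR adjusted p = 8.42e-07). Of the loader genes RFC5 fell in SUDHL6 (-0.12), and RFC1 (0.01) and RFC4 (-0.09) did not pass. In SUDHL16 PCNA measured 204, 121 and 217 CPM in parental and 134, 162 and 30.8 CPM in resistant libraries. CE-30 was far below the others, and CE-28 and CE-29 lay between CE-26 and the other parental libraries. The log2 fold change of -0.73 (SE 0.54, edgeR adjusted p = 0.537) did not pass. It was -0.94 without CE-26 (edgeR adjusted p = 0.364) and -0.50 without CE-26 and CE-30 (edgeR adjusted p = 0.179).

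Both genes of lagging-strand maturation fell in SUDHL6. FEN1, the nuclease that trims flaps between Okazaki fragments, measured 197, 199 and 198 CPM in parental and 167, 164 and 165 CPM in resistant libraries. The groups were apart, with a log2 fold change of -0.26 (SE 0.021, edgeR adjusted p = 7.16e-07). FEN1 overlaps FADS2 on the same strand, so its reads are less certain. In SUDHL16 FEN1 measured 81.0, 57.5 and 118 CPM in parental and 106, 81.0 and 34.6 CPM in resistant libraries, which overlapped. The SUDHL16 log2 fold change of FEN1 was -0.22 (SE 0.42, edgeR adjusted p = 0.843), -0.42 without CE-26 (edgeR adjusted p = 0.635) and -0.09 without CE-26 and CE-30 (edgeR adjusted p = 0.890). LIG1, the ligase that seals the fragments, measured 148, 144 and 148 CPM in parental and 123, 131 and 131 CPM in resistant SUDHL6 libraries, with a log2 fold change of -0.19 (SE 0.029, edgeR adjusted p = 1.80e-04). Its SUDHL16 values were 118, 72.7 and 133 CPM in parental and 171, 127 and 133 CPM in resistant libraries, and CE-29 was below the parental CE-27. Its log2 fold change there was 0.41 (SE 0.29) with all libraries, which did not pass in edgeR, 0.21 without CE-26 (edgeR adjusted p = 0.665) and 0.25 without CE-26 and CE-30 (edgeR adjusted p = 0.581).

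CHAF1A, the large subunit of the factor that places histones on new DNA, measured 123, 128 and 130.1 CPM in parental and 109, 108 and 106 CPM in resistant SUDHL6 libraries, a log2 fold change of -0.24 (SE 0.028, edgeR adjusted p = 2.19e-05). In SUDHL16 it measured 86.8, 68.9 and 96.0 CPM in parental and 98.4, 72.7 and 62.1 CPM in resistant libraries, with overlap. The log2 fold change was -0.11 (SE 0.26, edgeR adjusted p = 0.870), -0.22 without CE-26 (edgeR adjusted p = 0.683) and -0.10 without CE-26 and CE-30 (edgeR adjusted p = 0.867).

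RPA2, a subunit of the complex that coats single-stranded DNA, had a higher mean in resistant cells of both lines. It measured 57.5, 58.9 and 61.1 CPM in parental and 62.3, 64.2 and 64.4 CPM in resistant SUDHL6 libraries, a log2 fold change of 0.10 (SE 0.032, edgeR adjusted p = 0.0220). That rise was not stable, as edgeR's adjusted p was 0.0789 without CE-7, 0.0545 without CE-8, 0.0648 without CE-11, 0.0831 without CE-12 and 0.0665 with no filter. In SUDHL16 it measured 21.9, 22.4 and 24.6 CPM in parental and 33.0, 40.4 and 30.2 CPM in resistant libraries. The groups were apart in each line, but the SUDHL16 log2 fold change of 0.59 (SE 0.23, edgeR adjusted p = 0.215) did not pass. It was 0.58 without CE-26 (edgeR adjusted p = 0.186) and 0.66 without CE-26 and CE-30 (edgeR adjusted p = 0.130). RPA3, the small subunit, did not pass in either line (-0.06 in SUDHL6 and -0.11 in SUDHL16).

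Of the 3 genes of deoxynucleotide supply, 2 ran in opposite directions between the lines. RRM2, the regulated subunit of ribonucleotide reductase, measured 361, 363 and 350.4 CPM in parental and 428, 425 and 433 CPM in resistant SUDHL6 libraries. All resistant values were higher, and the log2 fold change was 0.26 (SE 0.019, edgeR adjusted p = 3.88e-07), the largest rise of a member in that line. In SUDHL16 RRM2 measured 324, 304 and 331 CPM in parental and 215, 286 and 44.4 CPM in resistant libraries. All resistant values were lower there, CE-30 by far, and the log2 fold change of -0.82 (SE 0.56, edgeR adjusted p = 0.493) did not pass. It was -0.84 without CE-26 (edgeR adjusted p = 0.461) and -0.39 without CE-26 and CE-30 (edgeR adjusted p = 0.336), so its size depended on CE-30. TK1, the S-phase thymidine kinase, ran the other way. It measured 113, 113 and 119 CPM in parental and 97.9, 95.7 and 96.6 CPM in resistant SUDHL6 libraries, with a log2 fold change of -0.25 (SE 0.028, edgeR adjusted p = 1.55e-05). In SUDHL16 TK1 measured 51.6, 22.4 and 70.3 CPM in parental and 101, 98.7 and 82.6 CPM in resistant libraries, all of them higher. Its SUDHL16 log2 fold change was 0.95 (SE 0.38, edgeR adjusted p = 0.213), 0.64 without CE-26 (edgeR adjusted p = 0.138) and 0.71 without CE-26 and CE-30 (edgeR adjusted p = 0.102). RRM1, the large subunit of the reductase, had log2 fold changes of -0.11 in SUDHL6 and 0.01 in SUDHL16. Its SUDHL16 value was -0.16 without CE-26 and 0.03 without CE-26 and CE-30, so the sign of this small value turned.

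**Figure D4:**
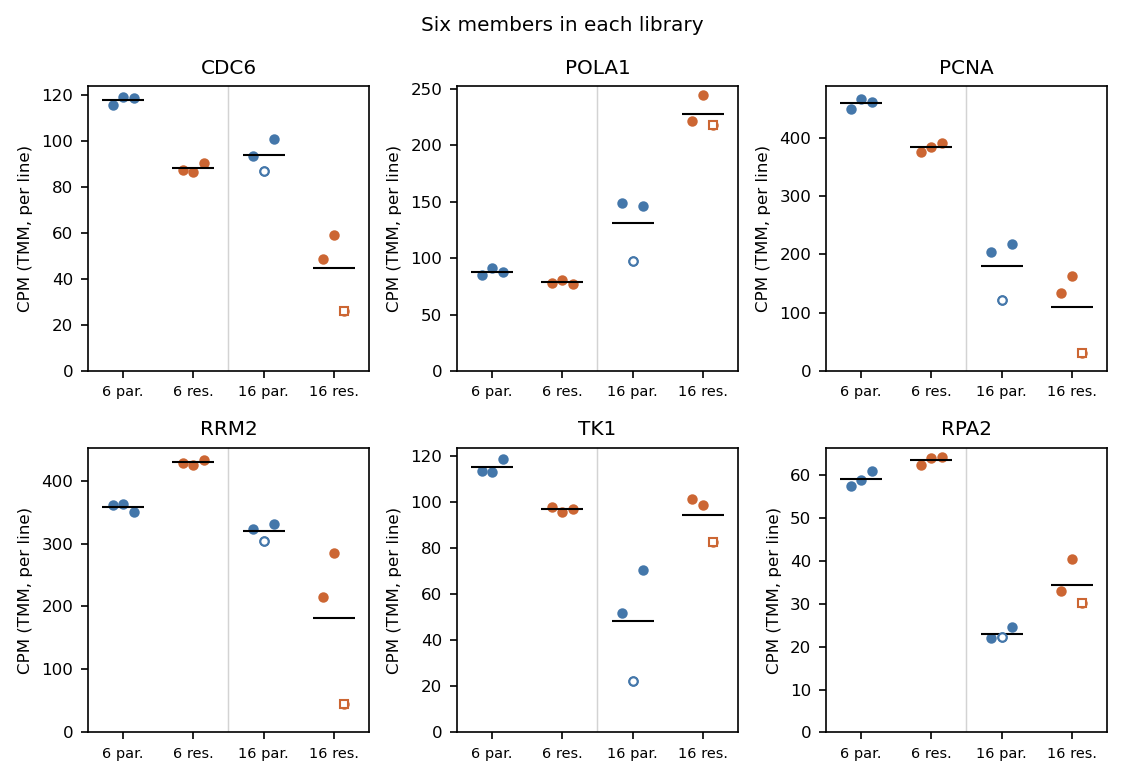
CPM (vertical axis, from 0) of CDC6, POLA1, PCNA, RRM2, TK1 and RPA2 in each library of SUDHL6 (6) and SUDHL16 (16), parental in blue and resistant in orange, with the group mean as a line. The open circle is CE-26 and the open square CE-30. POLA1 and TK1 are lower in resistant SUDHL6 and higher in resistant SUDHL16 libraries, and RRM2 is the reverse.

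Whether a member changed differently in the 2 lines was tested as the interaction of line and resistance over all 12 libraries. edgeR called 0 of 39 members, against 7.16% of the 19621 genes tested, and 5 members had an unadjusted p under 0.05, against 21.8%. DESeq2 called 3 (MCM5, POLA1 and TK1), where it called 14.3% of all genes, and limma voom with sample weights called 6 (those and CDC6, MCM7 and RRM2), where it called 14.7%. The edgeR count turned on single libraries. Leaving out CE-26 gave 3 calls, MCM5, POLA1 and TK1, against 13.4% of 20959 genes. Leaving out CE-25 gave 1 (POLA1), beside 6.91% of all genes, and leaving out CE-27 gave 2 (MCM5 and TK1), beside 7.16%. Without CE-26 and CE-30 there were 6 (CDT1, MCM5, MCM7, POLA1, RRM2 and TK1), against 16.6% of 20570 genes. The change in SUDHL16 minus that in SUDHL6 was 0.99 (SE 0.35, edgeR adjusted p = 0.118) for MCM5 with all libraries and 0.70 (SE 0.15, edgeR adjusted p = 0.00865) without CE-26. For POLA1 it was 0.98 (SE 0.27, edgeR adjusted p = 0.0511) and 0.75 (SE 0.13, edgeR adjusted p = 0.00235). For TK1 it was 1.19 (SE 0.44, edgeR adjusted p = 0.143) and 0.84 (SE 0.18, edgeR adjusted p = 0.00820). In each of these the resistant cells were lower in SUDHL6 and had the higher mean in SUDHL16. RRM2 had a difference of -1.05 (SE 0.64, edgeR adjusted p = 0.381) with all libraries. It was -1.15 without CE-26, and -0.68 without CE-26 and CE-30, where it was called.

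**Figure D5:**
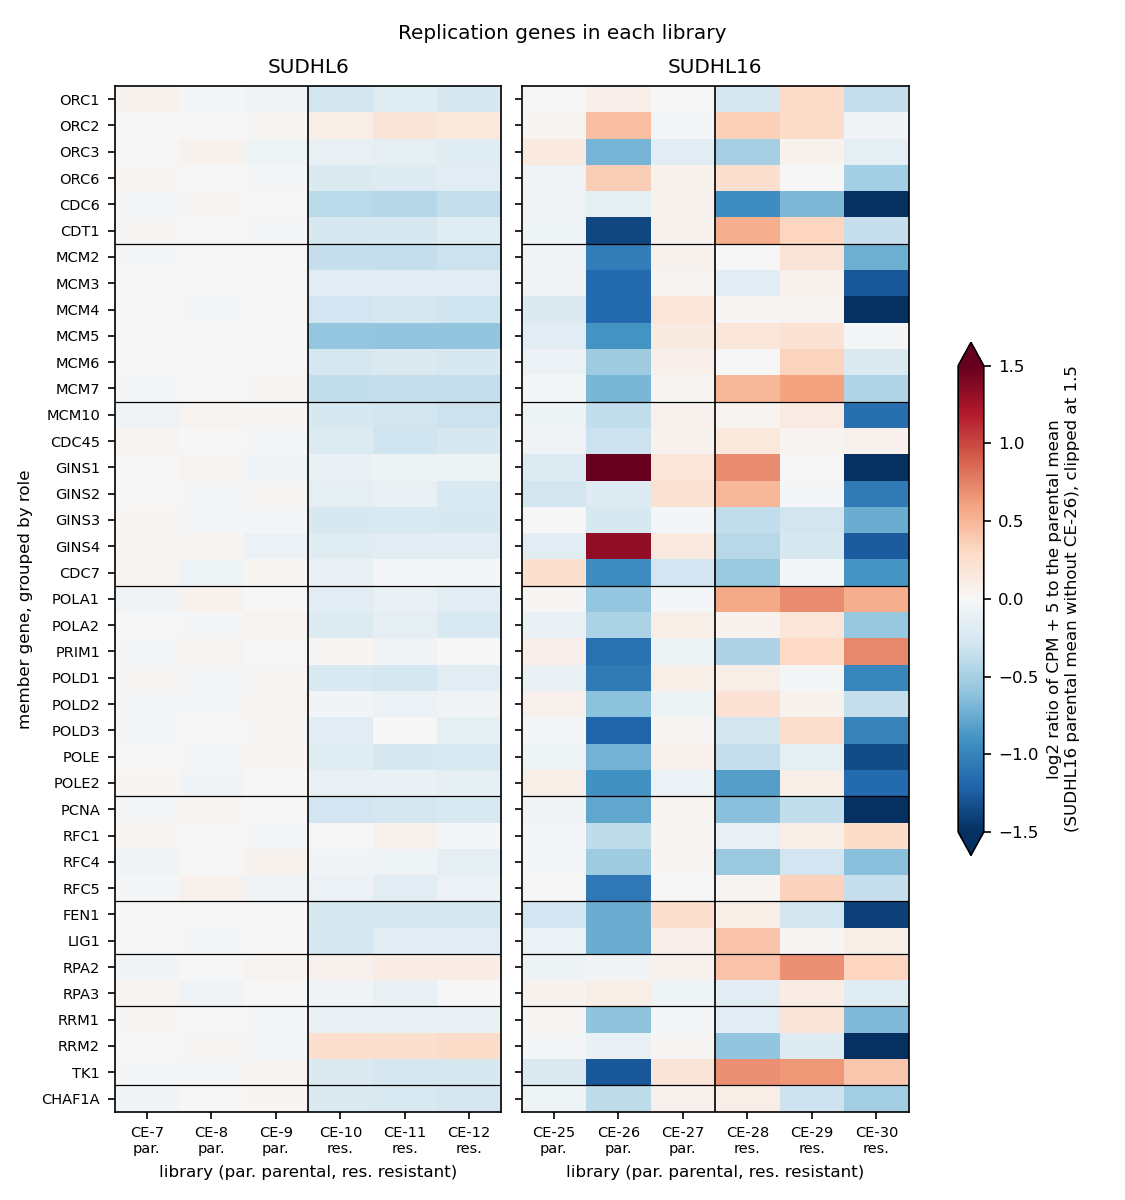
Colour gives the log2 ratio of CPM plus 5 in each library (columns) to the parental mean of its line, taken without CE-26 in SUDHL16, for the 39 members (rows, parted by role), with values beyond 1.5 shown at 1.5. SUDHL6 libraries of 1 group look alike, with 3 rows higher in all resistant libraries. In SUDHL16 most rows are low in CE-26 and in CE-30, while POLA1, RPA2 and TK1 are high in all resistant libraries.

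Libraries of SUDHL6 differed little within a group. Their median member differed from the parental mean by -0.0048, -0.0051 and 0.0077 (log2) in the parental and by -0.18, -0.16 and -0.17 in the resistant libraries. In SUDHL16 the median member differed from the mean of CE-25 and CE-27 by -0.60 in CE-26, by 0.025 in CE-28, 0.065 in CE-29 and -0.56 in CE-30. Of the 39 members 13 were below 0.5 times that parental mean in CE-30 on this scale, 9 in CE-26 and 0 in CE-28 and CE-29. CE-30 held the lowest value of the line for 21 members and CE-26 for 17. The label gives CE-30 no other treatment than CE-28 and CE-29, and the cause was not tested.

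Levels of different genes were compared per kilobase of exon. By group mean PCNA was the highest member throughout, at 327 CPM per kilobase in SUDHL6 parental, 274 in SUDHL6 resistant, 129 in SUDHL16 parental and 77.8 in SUDHL16 resistant cells. It was also the highest in each library except CE-30, where it ranked 11 at 21.9 CPM per kilobase, below TK1 (44.7), MCM7 (38.5) and CDT1 (36.8). MCM3 came next in SUDHL6 parental (224 CPM per kilobase) and SUDHL6 resistant cells (200.2), and MCM7 followed (147 and 114). POLA1, a long gene, was the lowest in SUDHL6, at 5.66 CPM per kilobase in parental and 5.07 in resistant cells. PRIM1, the catalytic primase subunit, was the lowest in SUDHL16 parental cells at 5.26. These lengths join all annotated exons of a gene, so a gene with many transcripts reads low.

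The chromosome around each member was read from the other protein-coding genes within 5 Mb on either side. In SUDHL6 the median log2 fold change of these neighbours lay between -0.15 and 0.14 for the 39 members, and MCM5 had neighbours at 0.05 (93 genes). In SUDHL16 the neighbour medians lay between -0.45 and 0.66. POLA1, on chromosome X, had the highest, with a median of 0.66 over 18 neighbours, 15 of them higher, beside its own 0.80. PCNA, on chromosome 20, had neighbours at 0.65 (53 genes) while PCNA itself was at -0.73. MCM7 had neighbours at 0.46 and CDC6 at -0.45, both on the side of the gene's own value. TK1 had neighbours at 0.14 and MCM5 at 0.11. DNA copy number was not analysed here.

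A list of 47 further replication genes was also mostly lower in resistant SUDHL6 cells. All 47 were tested. Of these 26 fell, beside 19.7% of all genes, and 7 rose, beside 17.7%. None changed 1.5-fold, and their median log2 fold change was -0.09. TYMS, thymidylate synthase, which makes the thymidine nucleotide, was the one with the smallest adjusted p. It measured 127, 129 and 128 CPM in parental and 184, 188 and 186 CPM in resistant SUDHL6 libraries, a rise of 0.54 (SE 0.022, edgeR adjusted p = 1.88e-09). SSRP1, a subunit of the histone chaperone FACT, measured 364, 374 and 369 CPM in parental and 323, 322 and 321 CPM in resistant libraries (log2 fold change -0.20, SE 0.018, edgeR adjusted p = 2.89e-06). MCMBP, which binds MCM proteins, measured 136, 125 and 127 CPM in parental and 98.2, 97.7 and 104 CPM in resistant libraries (log2 fold change -0.37, SE 0.035, edgeR adjusted p = 3.77e-06). WDHD1, which ties polymerase alpha to the helicase, measured 143, 142 and 138 CPM in parental and 120.2, 121 and 122 CPM in resistant libraries (log2 fold change -0.22, SE 0.025, edgeR adjusted p = 1.78e-05). All 3 were apart and lower, and TYMS was apart and higher. The neighbours of TYMS on chromosome 18, looked at after its value was seen, had a median of 0.78 over 12 genes, all of them higher.

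In SUDHL16 2 of the 47 were called, no larger a share than the 5.30% of all genes. Both were higher, and the median of the list was 0.15. SAMHD1, an enzyme that breaks down deoxynucleotides, measured 27.1, 28.2 and 31.2 CPM in parental and 85.5, 90.2 and 68.7 CPM in resistant libraries. All resistant values were far above all parental ones, a rise of 2.82-fold (SE 0.22 on the log2 scale, edgeR adjusted p = 0.00670). Without CE-29 its edgeR adjusted p was 0.0506 and the call was lost. RPA1, the large subunit of the complex that holds RPA2, measured 62.9, 52.3 and 70.9 CPM in parental and 112, 152 and 118 CPM in resistant libraries, also apart, with a log2 fold change of 1.03 (SE 0.24, edgeR adjusted p = 0.0457). Its adjusted p was near the threshold and passed it in edgeR without CE-26 (0.0355) but not when any of the other 5 libraries was left out (edgeR adjusted p 0.117 to 0.203). TYMS measured 66.0, 43.4 and 71.4 CPM in parental and 140.0, 154 and 107 CPM in resistant libraries, with 1.14 (SE 0.27, edgeR adjusted p = 0.0509), and 0.97 (adjusted p = 0.0360) without CE-26, where it was called. ORC5, a subunit of the origin recognition complex, measured 26.3, 28.9 and 24.6 CPM in parental and 30.6, 42.8 and 59.3 CPM in resistant libraries and did not pass (log2 fold change 0.74, SE 0.28, edgeR adjusted p = 0.198). Without CE-26 a further gene, DBF4B, an activator of CDC7, was called at -0.88 (edgeR adjusted p = 0.0356). The interaction called SAMHD1 (log2 fold change 1.63, SE 0.19, edgeR adjusted p = 3.79e-04), RPA1 (log2 fold change 1.14, SE 0.25, edgeR adjusted p = 0.0176) and RFC2, a clamp loader subunit (log2 fold change 0.79, SE 0.19, edgeR adjusted p = 0.0248), with all libraries, 3 of 47 beside 7.16% of all genes. The neighbours of RPA1 and SAMHD1, looked at after their values were seen, had medians of 0.92 (88 genes) and 0.54 (80 genes) in SUDHL16. Those of TYMS had a median of -0.03 in that line (7 of 14 higher), unlike TYMS itself.

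Histone genes that are expressed with DNA replication were read as a list of 65, and 33 were tested in SUDHL6 and 53 in SUDHL16. Their RNA mostly lacks a poly(A) tail, so their levels depend on the kit. Some copies are close in sequence, so their reads may be split between copies. In SUDHL6 3 of the 33 rose (H2BC8, H2AC8 and H2BC15), a lower share than the 17.7% of all genes. Of the 33, 2 were called higher, beside 4.31% of all genes. H2BC8 measured 0.617, 0.590 and 0.713 CPM in parental and 1.76, 1.58 and 1.76 CPM in resistant libraries, a rise of 2.64-fold (SE 0.20 on the log2 scale, edgeR adjusted p = 1.49e-04). H2AC8 measured 0.352, 0.561 and 0.320 CPM in parental and 0.770, 0.842 and 0.991 CPM in resistant libraries (log2 fold change 1.08, SE 0.30, edgeR adjusted p = 0.0137), levels below 1 CPM. This call was lost without CE-9 (edgeR adjusted p = 0.0592) and without CE-12 (0.0572). H2BC15 held 376, 343 and 503 counts in parental and 596, 523 and 502 counts in resistant libraries (log2 fold change 0.31, SE 0.087, edgeR adjusted p = 0.0143). It no longer passed in edgeR without CE-8 (adjusted p = 0.0616), without CE-10 (0.0685) or with no filter (0.0528). H2AC11, with 0.705, 0.590 and 0.614 CPM in parental and 0.646, 1.19 and 1.60 CPM in resistant libraries, did not pass (log2 fold change 0.84, SE 0.32, edgeR adjusted p = 0.0584). In SUDHL16 3 of the 53 were called (H3C4, H3C1 and H4C6), all lower. Of all 15708 genes 330 were called lower, and 5.30% were called either way. Without CE-26 6 were called, beside 541 of all 16280 genes called lower (10.0% either way). Without CE-26 and CE-30 10 were called, beside 575 of 15660 genes called lower (10.2% either way). Each time all the histone genes called were lower. H3C4 measured 191, 82.3 and 212 CPM in parental and 29.6, 50.3 and 27.1 CPM in resistant libraries (log2 fold change -2.19, SE 0.41, edgeR adjusted p = 0.0208). H3C1 measured 11.9, 8.61 and 21.4 CPM in parental and 1.81, 4.33 and 2.47 CPM in resistant libraries (log2 fold change -2.29, SE 0.52, edgeR adjusted p = 0.0425). Both were apart, and both calls were lost when any 1 library other than CE-26 was left out, with edgeR adjusted p from 0.0603 to 0.133 for H3C4 and from 0.0923 to 0.176 for H3C1. H4C6 held 81, 7 and 77 counts in the parental and 0 in every resistant library, which is at least 77.3-fold lower against a floor of 3 counts over the resistant group, for counting error only. Its edgeR adjusted p was 0.00986, and 0.0522 without CE-29, where the call was lost. H2BC3 held 61, 12 and 30 counts in parental and 0, 4 and 5 counts in resistant libraries and had an edgeR adjusted p of 0.0515. Over the tested histone genes the median log2 fold change was 0.29 in SUDHL6 and 0.21 in SUDHL16, where it was 0.30 without CE-26 and -0.52 without CE-26 and CE-30.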

How the data were processed

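RNA sequencing of 12 libraries was used. Per the submitters' notes the authors used Trim Galore, HISAT2, StringTie and edgeR on build GRCh38, and they deposited raw counts of reads per gene. The counter, its annotation and its use of strand are not given in the sources used here. Identifiers were named with GENCODE release 44. Groups come from the labels. Each line was fitted alone with edgeR 4.0.16 (R 4.3.3; filterByExpr, TMM, two-sided quasi-likelihood test), and the interaction over all libraries. A gene was called at an adjusted p (Benjamini-Hochberg over all genes tested) under 0.05 and 1.5-fold. P-values measure only the spread between these libraries, which may be technical. CPM are on the TMM scale of each line.

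Per-library values are given for members called in either line or in the interaction, with all libraries or without CE-26, and for the member of each role with the largest absolute log2 fold change in each line. Of the further replication genes and histone genes, the 4 with the smallest adjusted p in each line are named. Other names were chosen after their values were seen. Of these lists and the cell type markers, 2 genes are not reported here and enter no count or sum. Members and lists were chosen with earlier results of these data known. Of the members, 21 overlap another annotated gene, so their reads are less certain. Those described one by one include MCM7, GINS1, POLA1, POLD1, PCNA, FEN1, LIG1, RRM2 and CHAF1A. Alternatives were DESeq2 1.42.0, limma 3.58.1 voom with sample weights, upper-quartile scaling, no scaling factors, no filter, protein-coding genes only and each library left out. Tests were tried on simulated counts first, with changed genes drawn from all genes tested. In SUDHL16 0 of 67 genes changed 1.5-fold were found, 1 of 67 changed 2-fold and 12 of 66 changed 4-fold. For the line difference these were 0 of 67, 0 of 67 and 8 of 66, and in SUDHL6 41 of 67, 46 of 67 and 61 of 66. Tables and figures used Python 3.11.15, pandas 2.3.3, numpy 2.4.6 and matplotlib 3.10.9.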

Additional observations from a re-analysis of the deposited data

Results flagged for a closer look

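For 3 members the change differed between the lines in edgeR's interaction test once CE-26 was left out. The change in SUDHL16 minus that in SUDHL6, on the log2 scale, was 0.70 for MCM5 (adjusted p = 0.00865 with edgeR), 0.75 for POLA1 (adjusted p = 0.00235 with edgeR) and 0.84 for TK1 (adjusted p = 0.00820 with edgeR). In that fit 13.4% of all 20959 genes tested were called, so 3 of 39 members is a lower share than over all genes. With all libraries none of the 3 passed in edgeR with TMM over all genes. All 3 were called by DESeq2 and limma voom, POLA1 also by edgeR with upper-quartile scaling, and MCM5 and POLA1 by edgeR with protein-coding genes only. The lines also differ in kit and instrument, whose part cannot be told apart from that of the line.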

How the results depend on the processing

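In SUDHL6, 1 member (MCM5) was called with every alternative except upper-quartile scaling, which gave 0, since MCM5 then fell by 0.58 on the log2 scale. Without a limit on the fold 32 members passed. Leaving out 1 library gave 1 call each time. The members lower at an adjusted p under 0.05 numbered 25 to 30 over all alternatives and those higher 2 or 3. The median of the SUDHL6 members was -0.18 with upper-quartile scaling and with library totals, and -0.20 to -0.18 with 1 library left out. In SUDHL16 0 members were called in edgeR under each alternative with all libraries, 2 with DESeq2, 2 with limma voom and 1 without CE-26 and CE-30 (a choice made after seeing the data). Leaving out 1 library gave 0. The median of the SUDHL16 members was -0.14 to 0.21 with 1 library left out. Upper-quartile scaling and library totals moved the median of all SUDHL16 genes to -0.11 and 0.11, and that of the members to -0.08 and 0.09. With no filter the median of all genes was -1.18, as 41969 genes were then tested, and that of the members 0.10. For the difference between the lines the count was 3 with DESeq2, 1 with upper-quartile scaling (7.99% of all genes), 2 with protein-coding genes only (12.5%), 6 with limma voom, 6 without CE-26 and CE-30, 0 with library totals, 0 with no filter, and 0 to 3 with 1 library left out. Of the genes called in this test over the whole table, 60.7% were higher with TMM and 48.9% with DESeq2. Apart from the construction of these alternatives, the cause was not tested.

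Of 816 values of named genes under the alternatives, 730 kept direction and call, 40 were called only under the alternative, 22 were called only as reported, 24 changed sign without a call, and 0 changed sign with one. A loss of the adjusted p alone, as for GINS1 and RPA2 in SUDHL6, is not in this tally. No paired analysis was possible because the labels give no replicate numbers. The depth of CE-26, 4131927 counts, and the spread in SUDHL16 limit the SUDHL16 results.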

Other observations

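The histone genes ran against the replication genes in CE-30, as was seen after the values were known. Of the 50 histone genes with a mean of 5 CPM or more in SUDHL16, 43 were higher in CE-30 than the mean of CE-28 and CE-29 and 30 were more than 2 times as high, with a median ratio of 2.17. Of all 11087 such genes 4.37% were more than 2 times as high. H1-2, a linker histone gene and 1 of many, measured 205, 299.6 and 214 CPM in SUDHL16 parental and 116, 101 and 784 CPM in resistant libraries. Some copies are close in sequence, so not all of these genes are independent of each other, and the cause was not tested. Without CE-26 and CE-30, edgeR gave H1-2 a log2 fold change of -0.95 (adjusted p = 0.0253), and 0.48 (adjusted p = 0.792) with all libraries. PCLAF, a PCNA-binding factor of the list of further replication genes, was also low in CE-30, at 50.1, 97.8 and 65.2 CPM in parental and 96.9, 114 and 31.0 CPM in resistant libraries. DONSON, which helps to assemble the helicase, was high in CE-26 as GINS1 and GINS4 were, at 50.8, 215 and 42.6 CPM in parental and 73.5, 75.7 and 31.1 CPM in resistant libraries.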
